A study of Mus musculus with 15 samples.

Results

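Tumor clones not detected in the TdLN (tumor-draining lymph node) were productive T cell receptor (TCR) β rearrangements with 3 or more templates in tumor 1 or tumor 2 of a mouse and no template in the TdLN of the same mouse. There were 513 such members among 776 productive tumor clones of this size, and the other 263 were found in the TdLN. The series listed 29992 rearrangements in all. Members were selected on their measured template counts in the tumors and the TdLN, so their sizes and their absence from the TdLN are given as a description.

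CD8+ PD-1+ CD44+ T cells were sorted from the TdLN, the right tumor (tumor 1) and the left tumor (tumor 2) of 5 untreated, wild-type C57BL/6 mice that carried B16F10GP on both flanks, which gave 15 samples. B16F10GP is a mouse melanoma line that expresses a viral glycoprotein, a protein which T cells can recognise as a foreign antigen. Tumor 1 was implanted first, and the lymph node drained the tumor 1 side. Genomic DNA was assayed, so a template stands for a rearranged allele of a cell and not for an RNA molecule, and the gate used for sorting could not be checked against marker genes.

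A T cell builds its TCR β gene by joining a V, a D and a J segment, and the enzyme TdT adds N bases that no gene encodes at both joints. The joined region encodes CDR3, the loop that contacts peptide and MHC most directly. All progeny of a cell keep its rearrangement, so the same nucleotide sequence in the TdLN and in the tumor of a mouse is commonly read as shared descent.

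The rearrangements printed here are large members that were shared by mice or private to one, and 2 clones found in a TdLN that are close to a member in sequence. They were picked after their values were seen, and other members of similar size are not printed. Each is an 87-base read, 5′ to 3′, with the bases between the V and the J segment (D and N bases) in capitals.
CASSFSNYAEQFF, tumor 2 of mice 1, 2 and 3: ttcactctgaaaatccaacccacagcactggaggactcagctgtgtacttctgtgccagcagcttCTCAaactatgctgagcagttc
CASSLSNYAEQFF, a clone of mouse 1 found in its TdLN: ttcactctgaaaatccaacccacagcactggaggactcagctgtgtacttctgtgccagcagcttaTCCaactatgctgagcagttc
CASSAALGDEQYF, tumor 2 of mice 1, 2 and 3: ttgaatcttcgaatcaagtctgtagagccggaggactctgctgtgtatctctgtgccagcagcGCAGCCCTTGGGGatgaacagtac
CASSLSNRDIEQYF, tumor 2 of mice 1, 2 and 3: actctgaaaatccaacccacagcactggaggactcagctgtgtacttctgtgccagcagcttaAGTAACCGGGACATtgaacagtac
GSYEQYF, tumor 2 of mouse 2: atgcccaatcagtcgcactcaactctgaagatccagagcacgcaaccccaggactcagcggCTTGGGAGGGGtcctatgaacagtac
Trbv13-1 with Trbj2-4, both tumors of mouse 4: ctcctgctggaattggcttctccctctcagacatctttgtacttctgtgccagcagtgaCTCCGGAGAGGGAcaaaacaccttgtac
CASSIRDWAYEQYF, tumor 1 of mouse 5: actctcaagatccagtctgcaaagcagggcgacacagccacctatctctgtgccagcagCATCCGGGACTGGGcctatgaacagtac
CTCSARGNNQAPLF, tumor 2 of mouse 5: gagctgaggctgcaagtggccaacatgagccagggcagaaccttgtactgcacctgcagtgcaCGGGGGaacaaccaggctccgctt
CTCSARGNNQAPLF, a clone of mouse 2 found in its TdLN: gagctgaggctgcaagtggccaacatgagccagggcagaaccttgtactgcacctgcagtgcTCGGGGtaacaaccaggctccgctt

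All V and J segments of these reads lie on chromosome 6 of GRCm38. In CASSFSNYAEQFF the V part matched chr6:41048757-41048821 on the plus strand, in Trbv3, and the J part chr6:41542755-41542772, in Trbj2-1. In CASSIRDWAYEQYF they matched chr6:41135553-41135611, in Trbv14, and chr6:41543812-41543825, in Trbj2-7. In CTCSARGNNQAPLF of mouse 5 they matched chr6:40891821-40891883, in Trbv1, and chr6:41535085-41535102, in Trbj1-5. These stretches are coding sequence of the V and J segments.

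Productive templates numbered 3254 to 9105 in the TdLN, 3601 to 6137 in tumor 1 and 238 to 3975 in tumor 2, where mouse 4 was lowest. Absence from a TdLN still allowed a share of up to 0.0329% to 0.0922% of its productive templates, which is what 3 templates would give. This limit and all intervals cover counting error only.

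Before the members are described, it must be said that many of them were shared between mice. Of the 513 members, 216 (42.1%) had the identical 87-base rearrangement in a sample of another mouse, and 297 were private to their mouse. Of the 263 tumor clones found in the TdLN, 99 (37.6%) were likewise found in another mouse. The mean over mice was 44.7% ± 21.7 for members and 36.5% ± 25.3 for clones found in the TdLN (SD, n = 5; two-sided exact permutation test, p = 0.587), a difference that did not pass the test. Because a shared sequence can count in each mouse that holds it, the mice were not independent replicates in this test. In tumor 1 the shared members numbered 4 of 16 in mouse 1, 6 of 42 in mouse 2, 1 of 23 in mouse 3, 21 of 79 in mouse 4 and 23 of 74 in mouse 5. In tumor 2 they numbered 66 of 81 in mouse 1, 40 of 62 in mouse 2, 50 of 71 in mouse 3, 7 of 10 in mouse 4 and 8 of 81 in mouse 5. The shared percentage was thus higher in tumor 2 than in tumor 1 in every mouse but mouse 5.

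Averaged over 5 mice, 20.3% ± 10.8 of tumor 1 members and 59.3% ± 28.3 of tumor 2 members were found in another mouse (SD, n = 5). The difference was 39.0 percentage points ± 34.7, and tumor 2 was higher in 4 of 5 mice (two-sided exact permutation test, p = 0.0397, chosen after the data were seen). A sequence held by 2 mice can raise the share of both, and 58 of the 81 tumor 2 members of mouse 1 were in tumor 2 of mouse 2. The 5 mice were therefore not independent replicates for these shares, while the p-values of this paragraph assume that they were. With the mouse as a block the exact sign-flip test gave p = 0.125. With 5 mice that test cannot go below 0.0625, so it could make no call. The call was lost without mouse 1, 2, 3 or 4 (differences of 34.6, 36.2, 32.2 and 37.9 points, exact permutation test, p = 0.114 to 0.143). Without mouse 5 the difference was 54.1 points (exact permutation test, p = 0.0286). Among clones found in the TdLN, 28 of 55, 48 of 70, 4 of 51, 10 of 21 and 1 of 49 were found in another mouse in tumor 1 of mice 1 to 5, and 21 of 29, 41 of 54, 1 of 1, 3 of 4 and 6 of 11 in tumor 2. Their means were 35.4% ± 29.0 and 75.6% ± 16.2, higher in tumor 2 in 5 of 5 mice (SD, n = 5; two-sided exact permutation test, p = 0.0159, chosen after the data were seen). The exact sign-flip test with the mouse as a block gave p = 0.0625 for them. This call was also lost without mouse 1, 3 or 4 (exact permutation test, p = 0.0571). It stayed without mouse 2 or 5 (exact permutation test, p = 0.0286). Library names, though not sample titles, begin with CON for mice 1 to 3 and with Con for mice 4 and 5. Within these sets the difference for members was 57.6 ± 7.98 points (SD, n = 3) and 11.1 ± 45.7 points (SD, n = 2).

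**Figure D1:**
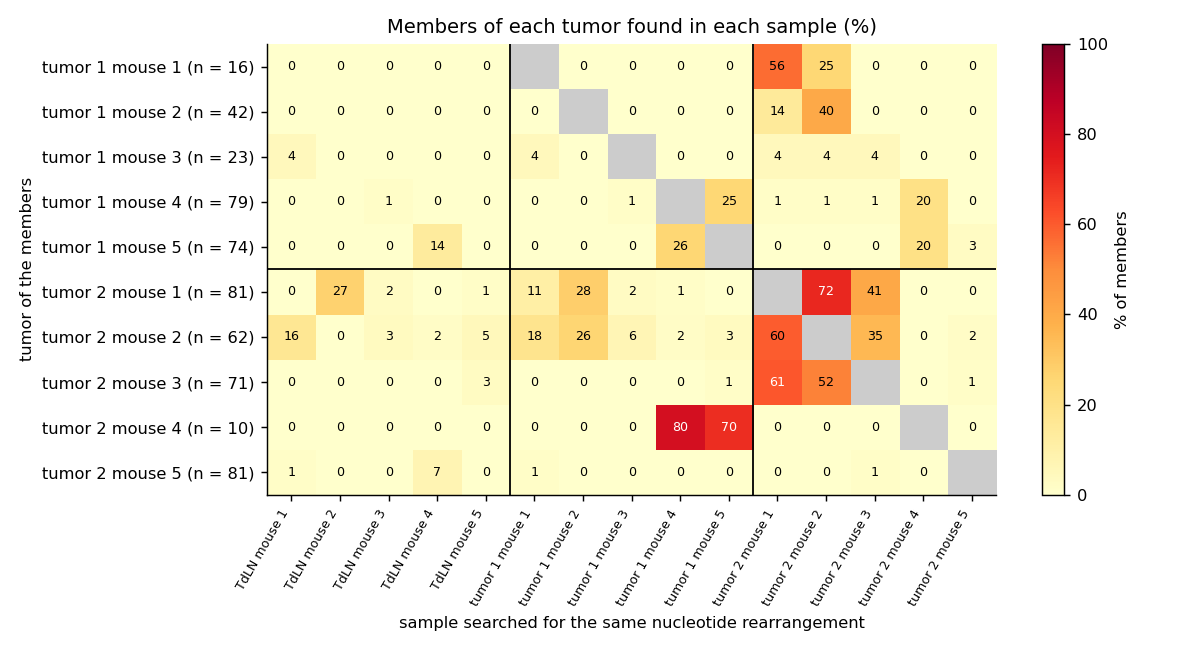
Percentage of the members of each tumor (rows, with their number) whose identical rearrangement was found in each of the 15 samples (columns), with a gray cell for the sample itself. Away from the same mouse, high values stand in the block of tumor 2 of mice 1 to 3 (35.5% to 71.6%). A value of 70% stands for the 10 members of tumor 2 of mouse 4 in tumor 1 of mouse 5. Lower values, 25.3% and 25.7%, stand between tumor 1 of mice 4 and 5. Tumor 2 members of mice 1 and 2 have 16.1% to 28.4% in the TdLN and tumor 1 of the other. Tumor 1 members of mice 1 and 2 have 25% and 14.3% in tumor 2 of the other.

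The map of sharing shows which samples held the same sequences. Of the 81 tumor 2 members of mouse 1, 58 were in tumor 2 of mouse 2 and 33 in tumor 2 of mouse 3. Of the 71 tumor 2 members of mouse 3, 43 were in tumor 2 of mouse 1 and 37 in tumor 2 of mouse 2, but 0 were in tumor 1 of mouse 3, which allows each a share of up to 0.0755% of the productive templates there. Tumor 2 of mouse 3 therefore shared more members with other mice than with the mouse on its label.

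In the second set, 20 of the 79 tumor 1 members of mouse 4 were in tumor 1 of mouse 5. Of the 10 tumor 2 members of mouse 4, 8 were in tumor 1 of its own mouse and 7 in tumor 1 of mouse 5. Of the 74 tumor 1 members of mouse 5, 19 were in tumor 1 and 10 in the TdLN of mouse 4, and 2 were in tumor 2 of mouse 5.

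Leaving out tumor 2 of mouse 3 altogether left 442 members, of which 158 (35.7%) were found in another mouse. Tumor 2 of mouse 1 then had 59 of its 81 members (72.8%) in another mouse, and tumor 2 of mouse 2 still had 40 of 62.

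Out-of-frame rearrangements, which encode no receptor and are carried by a T cell beside its productive allele, showed the same layout. Among those of 3 or more templates absent from the own TdLN, 30 of 33 in tumor 2 of mouse 1, 21 of 31 in that of mouse 2 and 20 of 24 in that of mouse 3 were found in another mouse. In tumor 2 of mouse 4 it was 1 of 3, and in that of mouse 5 it was 1 of 27. In tumor 1 the counts were 1 of 6, 4 of 23, 0 of 4, 6 of 27 and 5 of 23 in mice 1 to 5. The mean was 15.6% ± 9.07 in tumor 1 and 55.8% ± 36.6 in tumor 2 (SD, n = 5; two-sided exact permutation test, p = 0.0794, chosen after the data were seen). Here too the mice were not independent replicates. Whether libraries were exchanged or held material of each other was not tested. The mouse of a member is that of its label, and absence is from the TdLN of the same label, as for 71 of the 72 clones of tumor 2 of mouse 3. Results on the members are given with all members and with private members alone.

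The same 19 sequences were members in 3 mice, and another 34 in 2 mice, so the 513 members were 441 distinct sequences. All 19 were present in tumor 2 of mice 1, 2 and 3, and 17 of them were found in no other sample. They used 9 V genes and had 0 to 8 N bases, with a median of 3. In 17 of the 19 the count was highest in mouse 3.

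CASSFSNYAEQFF, a Trbv3 and Trbj2-1 rearrangement with 2 N bases, had 182, 128 and 891 templates in tumor 2 of mice 1, 2 and 3 and 0 in the other 12 samples. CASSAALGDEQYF (Trbv4, Trbj2-7, 8 N bases) had 90, 47 and 206 in the same tumors. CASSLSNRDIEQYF (Trbv3, Trbj2-7, 8 N bases) had 38, 27 and 243. The order of the 3 tumors was the same for each of these sequences, with mouse 3 highest and mouse 2 lowest.

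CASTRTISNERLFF (Trbv13-3, Trbj1-4) had 16, 7 and 328 templates there. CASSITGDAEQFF (Trbv19, Trbj2-1) had 76, 37 and 134. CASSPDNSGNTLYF (Trbv12-1, Trbj1-3) was one of the 2 exceptions, with 38, 25 and 118 templates in these tumors, 2476 in tumor 1 and 106 in the TdLN of mouse 3, and 31 in tumor 1 of mouse 4. It was a member in mice 1, 2 and 4 but not in mouse 3, whose TdLN held it. The remaining sequences shared by 3 mice had 3 to 163 templates in each tumor.

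**Figure D2:**
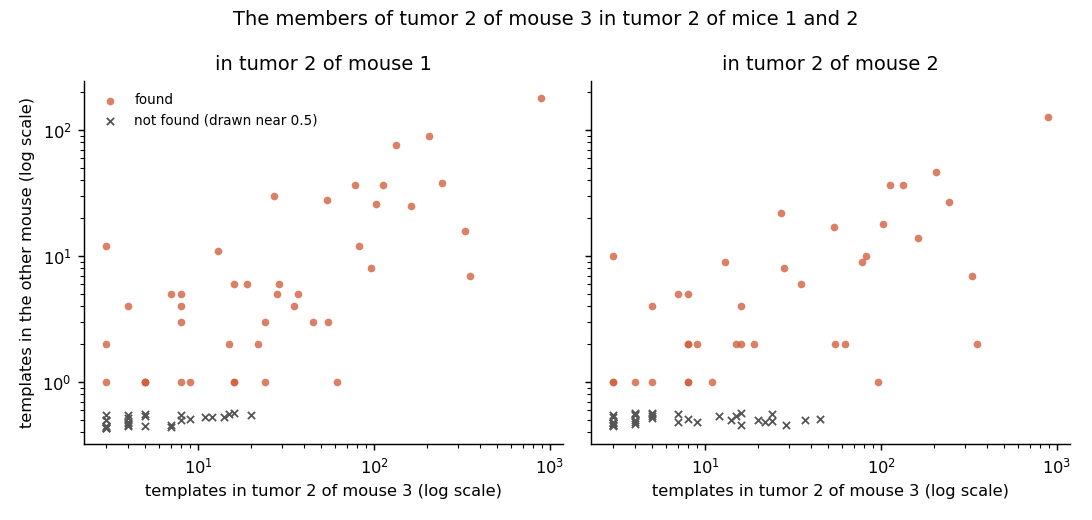
Templates of each of the 71 members of tumor 2 of mouse 3 (horizontal) against its templates in tumor 2 of mouse 1 (left) and mouse 2 (right), both axes logarithmic. All 15 members with 50 or more templates in mouse 3 were found in both other mice, while small members were often not found.

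The counts by size, which the plot of tumor 2 counts shows, were higher for larger members. Of the 35 members of tumor 2 of mouse 3 with 3 to 9 templates, 13 were in tumor 2 of mouse 1 and 13 in that of mouse 2. Of the 21 with 10 to 49 templates it was 15 and 9, and of the 15 with 50 or more it was 15 and 15. Across the 46 members of either mouse found in both samples, the counts of tumor 2 in mice 3 and 1 had a Spearman rho of 0.641. For tumor 1 of mice 4 and 5 rho was 0.881 over 27 members, with a median of 13.5 times as many templates in mouse 4. These correlations are across sequences that share 2 libraries and are given as a description.

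Of the 513 members, 402 had their highest count in a sample of their own mouse and 111 in a sample of another, and 58 were in the TdLN of another mouse. By the rule the own TdLN could not hold the highest count. No such counts are given for clones found in the TdLN, so these are a description. In tumor 2 of mouse 1 it was 50 of 81 members that peaked elsewhere, 27 of them in tumor 2 of mouse 3 and 17 in tumor 1 of mouse 2. In tumor 2 of mouse 2 it was 34 of 62, of which 18 peaked in tumor 2 of mouse 3 and 10 in tumor 1 of mouse 1. In tumor 1 of mouse 5 it was 20 of 74, of which 19 peaked in tumor 1 of mouse 4. GSYEQYF (Trbv16, Trbj2-7) illustrates this, since it was the largest tumor 2 member of mouse 2 with 298 templates but had 2948 in tumor 1, 1335 in tumor 2 and 409 in the TdLN of mouse 1.

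Members made up very unequal parts of the tumors. They numbered 16, 42, 23, 79 and 74 in tumor 1 of mice 1 to 5 and 81, 62, 71, 10 and 81 in tumor 2. In tumor 1 they held 2.88%, 6.43%, 8.10%, 61.1% and 38.3% of productive templates. In tumor 2 they held 30.6%, 29.6%, 93.1%, 66.8% and 64.7%, where the 93.1% belongs to the library labelled tumor 2 of mouse 3. Mice 4 and 5 were thus high in both tumors, and mice 1 to 3 in tumor 2 alone.

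Private members held much less. They made up 1.21%, 5.17%, 7.90%, 8.35% and 31.6% of the templates of tumor 1 and 1.61%, 3.09%, 3.87%, 5.04% and 61.6% of those of tumor 2. Outside mouse 5, no tumor had over 8.35% of its templates in private members. The largest falls among the 10 tumors were in tumor 2 of mouse 3, from 93.1% to 3.87%, and in tumor 2 of mouse 4, from 66.8% to 5.04%.

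**Figure D3:**
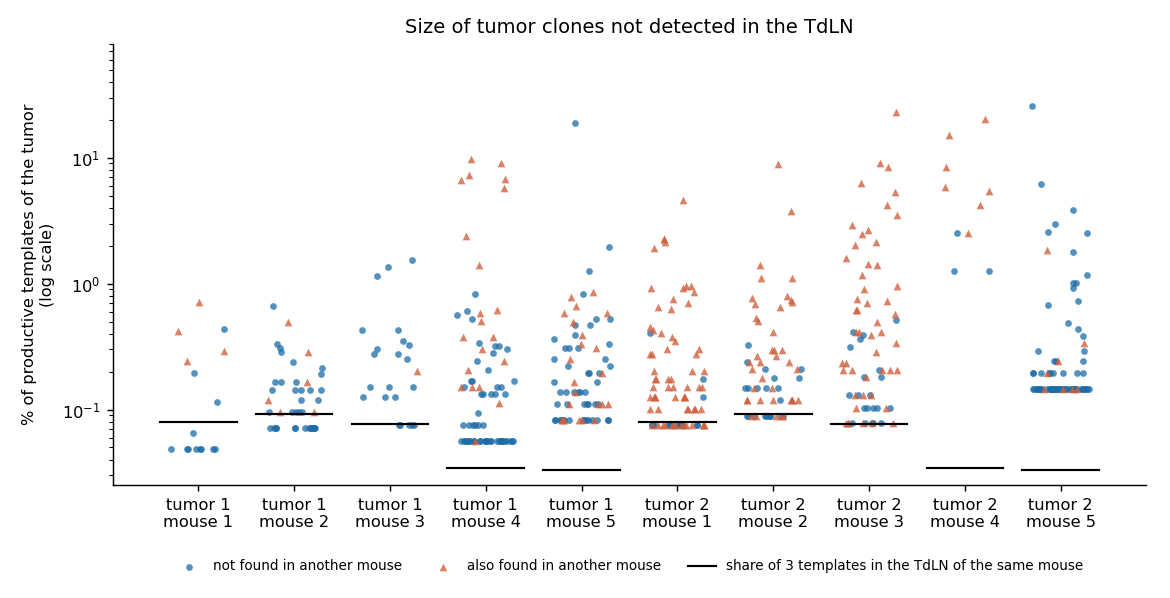
Size of every member in each tumor as a percentage of the productive templates of that tumor (log scale), with members also found in another mouse as triangles and the others as circles. The black line marks the share that 3 templates would have in the TdLN of the same mouse, and the largest circles stand in mouse 5.

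Most members were small, as the plot of member sizes shows. In 348 of 513 (67.8%) the larger of the tumor counts was 3 to 9 templates, and in 174 it was 3. Just inside the threshold, 33.3% to 100% of the clones with 3 templates in a tumor were absent from the TdLN, and just outside it 48.4% to 96.2% of those with 2 templates. At the other end 22 members had 100 or more templates, of which 9 belonged to mouse 3, 7 to mouse 4, 3 to mouse 5, 2 to mouse 2 and 1 to mouse 1. Only 3 of these 22 were private, and all 3 belonged to mouse 5.

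The largest private member was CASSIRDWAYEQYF (Trbv14, Trbj2-7, 5 N bases), with 679 templates in tumor 1 and 1 in tumor 2 of mouse 5. That was 18.9% of tumor 1, at least 572-fold above the share that 3 templates would give in the TdLN. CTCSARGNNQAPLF (Trbv1, Trbj1-5, 1 N base) had 529 templates in tumor 2 of mouse 5, or 25.6%, which was at least 776-fold above that share. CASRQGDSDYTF (Trbv13-1, Trbj1-2), with no N base, had 127 in the same tumor, and it is named here for its size after the values were seen. The TdLN of mouse 5 had 9105 productive templates, the most of any sample.

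In mouse 4 the leading member joined Trbv13-1 to Trbj2-4 with 9 N bases and counted 515 templates in tumor 1 of that mouse, 48 in its tumor 2 and 24 in tumor 1 of mouse 5. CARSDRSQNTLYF (Trbv17, Trbj2-4), named for its size after the values were seen, followed it closely with 480 and 36, and had 21 in tumor 1 of mouse 5. All 7 members of mouse 4 with 100 or more templates were found in both of its tumors and in another mouse.

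The leading members of the other tumors were smaller. In tumor 1 of mouse 1 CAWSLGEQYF (Trbv31, Trbj2-7), with no N base, had 44 templates, and it had 3 in tumor 2 of mouse 2. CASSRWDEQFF (Trbv16, Trbj2-1) had 26 in tumor 1 and 34 in tumor 2 of mouse 1, and 2 in tumor 2 of mouse 2. In mouse 2 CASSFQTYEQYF (Trbv29, Trbj2-7) had 28 in tumor 1 and 6 in tumor 2, and was private. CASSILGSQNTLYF (Trbv19, Trbj2-4) had 12 and 10 there, with 1 in tumor 2 of mouse 1. In tumor 1 of mouse 3 a private Trbv13-1 and Trbj2-7 rearrangement had 61 templates. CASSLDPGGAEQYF (Trbv16, Trbj2-7) had 54 in tumor 1 and 2 in tumor 2 of that mouse.

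Presence in both tumors was lower among members than among clones found in the TdLN in all 5 mice, and the difference did not pass the test. In all, 189 members were in tumor 1 alone, 272 in tumor 2 alone and 52 in both. The share in both tumors was 14.1%, 22.0%, 1.06%, 19.8% and 1.29% of members in mice 1 to 5. Among clones found in the TdLN it was 78.9%, 86.8%, 3.92%, 38.1% and 15.5%. The groups overlapped, since the clones found in the TdLN of mice 3 and 5 lay within the range of the members.

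The means were 11.6% ± 9.97 and 44.7% ± 37.1 (SD, n = 5), a difference of -33.0 points ± 29.6 (two-sided exact permutation test, p = 0.103). With the mouse as a block the exact sign-flip test gave p = 0.0625, the smallest it allows. For private clones the shares were 37.5%, 34.0%, 2.33%, 10.2% and 1.61% of members against 65.5%, 76.9%, 2.13%, 18.2% and 17.6%. That difference was -18.9 points ± 17.0, lower in 4 of 5 mice (exact permutation test, p = 0.310). The median of the larger count was 5, 5, 9.5, 7 and 4 templates in members of mice 1 to 5 and 8, 11, 8, 9 and 12 in clones found in the TdLN, and the part of clone size in this difference was not tested beyond clones of 3 to 9 templates. There the difference was -21.2 points (p = 0.317, exact permutation test).

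**Figure D4:**
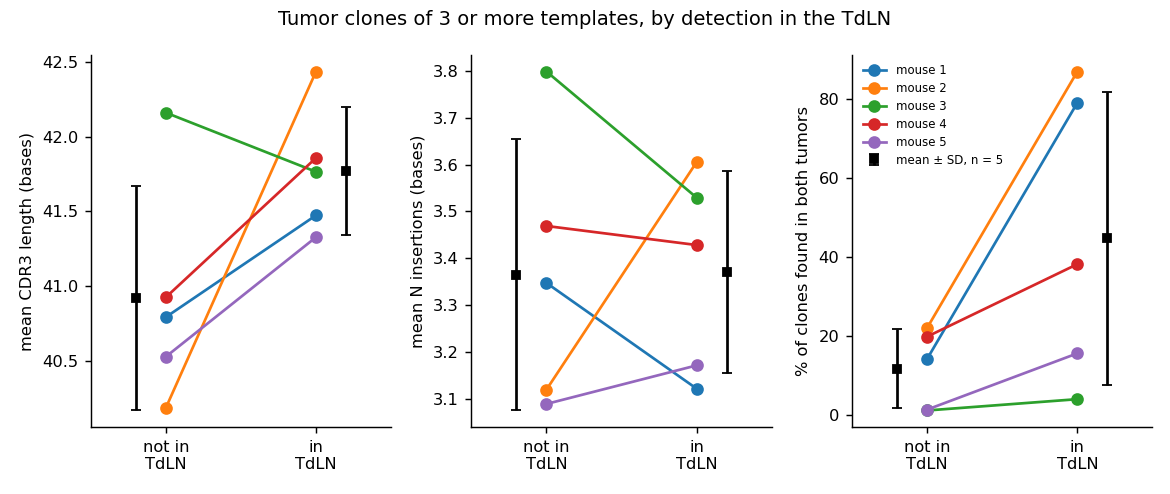
Mean CDR3 length, mean number of N bases and percentage of clones found in both tumors for tumor clones not in and in the TdLN, with a line for each of 5 mice and black squares for the mean ± SD. CDR3 was shorter in members in every mouse but mouse 3, N bases crossed between mice, and presence in both tumors was lower in members in all 5 mice.

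The junctions of members and of clones found in the TdLN did not differ beyond the spread between mice in any of 5 measures. CDR3 of members spanned 21 to 54 bases with a median of 42, and N bases 0 to 12 with a median of 3. No N base was present in 48 members. The D segment was read as Trbd1 in 216, as Trbd2 in 199 and not assigned in 98 (19.1%). All 513 CDR3s ended in F, and 2 did not start with C. Both were GSYEQYF, with 25 bases deleted from the V end. It was a member in tumor 2 of mouse 2 and, with 8 templates, in tumor 1 of mouse 3.

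Mean CDR3 length was 40.8, 40.2, 42.2, 40.9 and 40.5 bases in members of mice 1 to 5 and 41.5, 42.4, 41.8, 41.9 and 41.3 in clones found in the TdLN. Members were shorter in 4 of 5 mice, with mouse 3 the exception. The difference was -0.853 bases ± 0.941 (SD, n = 5; exact permutation test, p = 0.0556, adjusted p = 0.278 over 5 junction measures). Among private clones it was -0.618 bases ± 1.19 (exact permutation test, adjusted p = 0.685).

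N bases averaged 3.37 ± 0.289 in members and 3.37 ± 0.215 in clones found in the TdLN (SD, n = 5; exact permutation test, adjusted p = 0.984). The share without N bases was 8.94% ± 3.55 and 7.38% ± 4.82 (exact permutation test with n = 5, adjusted p = 0.744). Bases deleted from the V end averaged 2.79 ± 0.295 and 2.56 ± 0.386 (exact permutation test with n = 5, adjusted p = 0.734). Those deleted from the J end averaged 3.11 ± 0.196 and 2.99 ± 0.392 (exact permutation test with n = 5, adjusted p = 0.744). Among private clones no measure passed the test either.

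V genes were compared as shares of clones. Counting only V genes that averaged 1% or more of clones, 19 were tested. Of these 0 had an adjusted p under 0.05 (0% called), and 3 (15.8%) had an unadjusted p under 0.05 by the exact permutation test. At the smallest p of the exact permutation test, 0.00794, a single gene could not pass the adjustment over 19 genes. This count of 0 therefore does not show that V gene shares were alike. limma on log2 shares with a pseudocount of 1 called 0, with 2 at an unadjusted p under 0.05. Trbv19 was the V gene of most members, 74 of 513, followed by Trbv13-1 with 41.

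Trbv5, at chr6:41062332-41062803 on the plus strand, had the largest difference. Its share was 9.78%, 6.59%, 9.57%, 6.17% and 4.52% of members in mice 1 to 5 and 14.04%, 17.1%, 15.7%, 9.52% and 12.1% of clones found in the TdLN. It was lower in members in all 5 mice, with a mean difference of -6.36 points ± 2.84 (exact permutation test, n = 5, p = 0.0238, adjusted p = 0.201). Private members were also lower in all 5 mice, with a mean of 8.26% against 13.7%.

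Trbv19, at chr6:41178375-41179048 on the plus strand, had 16.3%, 17.6%, 17.0%, 16.05% and 9.03% of members and 8.77%, 10.5%, 9.80%, 14.3% and 8.62% of clones found in the TdLN. The mean difference was 4.80 points ± 3.42, higher in 5 of 5 mice (exact permutation test, n = 5, adjusted p = 0.201). Among private clones the sign turned, with 12.7% of members against 13.3%. Trbv19 was also the V gene of 5 of the 19 sequences shared by 3 mice.

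Trbv16, at chr6:41151740-41152230, had a mean of 4.36% ± 2.37 in members and 7.65% ± 4.01 in clones found in the TdLN (SD, n = 5; exact permutation test, adjusted p = 0.427). Among private clones the values were 4.97% and 4.64%, again with the sign turned. The remaining V gene with an unadjusted p under 0.05 was Trbv13-2, with 7.18% ± 1.40 and 4.01% ± 2.55, and 12.2% and 4.65% among private clones.

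**Figure D5:**
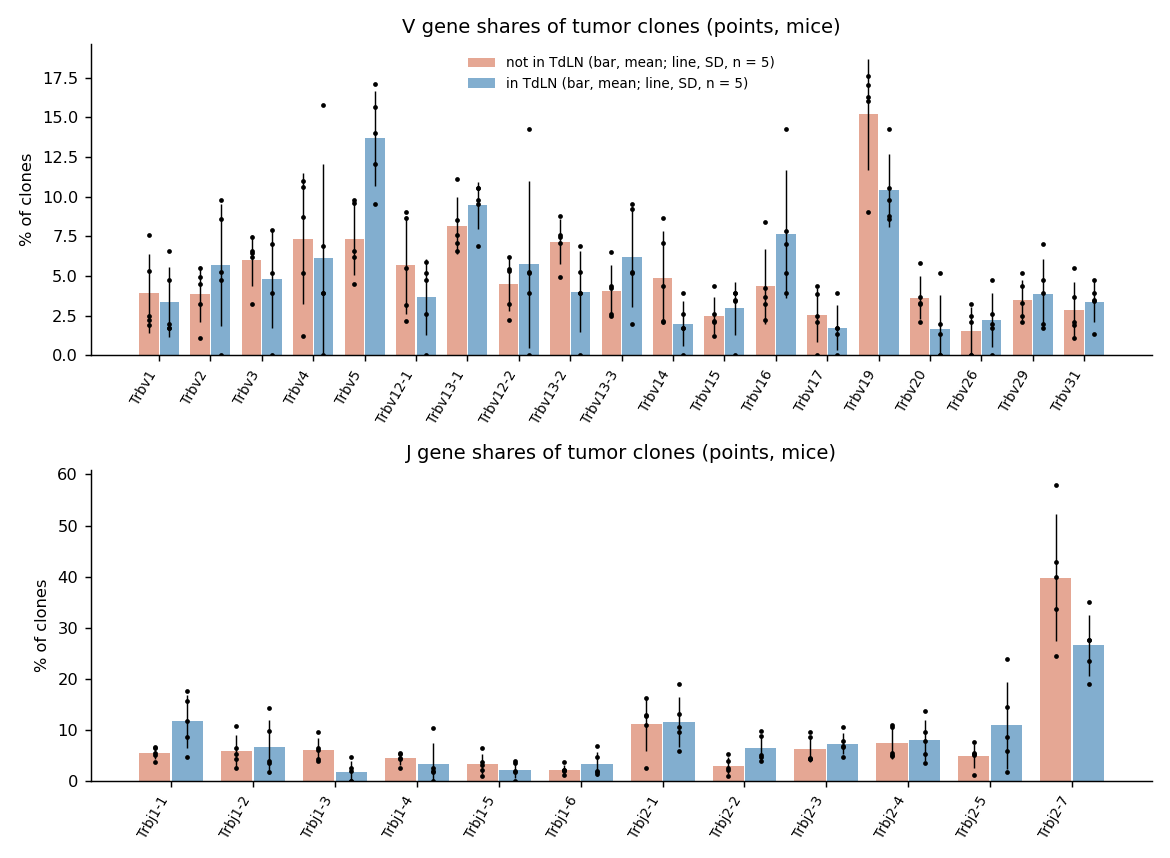
Share of tumor clones with each V gene (top) and J gene (bottom), as the mean over 5 mice (bars) with its SD (lines) and each mouse (points), for clones not in the TdLN and clones in the TdLN. Trbv5 and Trbj1-1 lie lower, and Trbv19 and Trbj2-7 higher, in clones not in the TdLN, without passing the adjusted test.

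Of 12 J genes tested, 0 had an adjusted p under 0.05 (0% called) and 3 (25% called) had an unadjusted p under 0.05 by the exact permutation test. Here too a single gene could not pass the adjustment at the smallest p of that test. Trbj2-7, at chr6:41543810-41543856, was the J gene of 202 members. Its share was 33.7%, 42.9%, 24.5%, 58.0% and 40% of members in mice 1 to 5 and 35.1%, 27.6%, 23.5%, 19.0% and 27.6% of clones found in the TdLN. It was higher in members in 4 of 5 mice, by 13.2 points ± 16.1 (exact permutation test, n = 5, adjusted p = 0.190). Among private clones it was 50.6% against 30.2%, higher in 5 of 5 mice (exact permutation test, adjusted p = 0.143).

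Trbj1-1, at chr6:41533864-41533911, had 5.43%, 6.59%, 6.38%, 3.70% and 5.16% of members and 17.5%, 11.8%, 15.7%, 4.76% and 8.62% of clones found in the TdLN. The difference was -6.24 points ± 4.46, lower in 5 of 5 mice (exact permutation test, n = 5, adjusted p = 0.190). Among private clones it was -9.39 points, lower in 5 of 5 mice (exact permutation test, p = 0.00794, the smallest it allows, adjusted p = 0.0952). limma with a pseudocount of 1 called 1 J gene, Trbj1-3, with a mean of 6.11% ± 2.24 in members and 1.87% ± 1.997 in clones found in the TdLN (limma adjusted p = 0.0256). With a pseudocount of 0.1 it called 0 (3 at an unadjusted p under 0.05). By the exact permutation test the adjusted p of Trbj1-3 was 0.190. Among private clones its share was 5.71% of members against 2.59%, higher in 4 of 5 mice (exact permutation test, adjusted p = 0.548).

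Some members had a counterpart in the own TdLN that encoded the same CDR3 with the same V and J gene in other bases. Such convergent counterparts existed for 16 members, a mean of 2.86% ± 1.87 over mice, against 2.87% on average in the TdLNs of other mice (one-sided exact permutation of mouse numbers, 120 pairings, n = 5, p = 0.383). This depended on the setting, since the own share was 4.32% at a minimum of 2 templates (exact permutation, p = 0.00833) and 5.01% in tumor 1 alone (exact permutation, p = 0.0417). In mice 1 to 5 the share was 3.26%, 4.40%, 2.13%, 0% and 4.52%. Private members gave 2.69% against 2.10% (exact permutation, p = 0.300). The nearest rearrangement of the own TdLN was 1 mismatch away for 15 members and 2 for 29, of 87 bases.

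Between mice, 121 of 513 members (23.6%) had a CDR3, V and J gene that another mouse encoded in other bases. No such share is given for clones found in the TdLN, so this is a description and not a trait particular to members. The pair with most templates was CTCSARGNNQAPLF. In mouse 5 it had 529 templates, in tumor 2 alone. In mouse 2 the same amino acids in other bases had 1158 templates in tumor 1, 498 in tumor 2 and 113 in the TdLN, and 90 in tumor 2 of mouse 1, where it counted as a member. Counted from 1 at the 5′ end of the printed reads, mouse 2 and mouse 5 differed by T63A and T69G. The member of mouse 5 was thus a different rearrangement from the clone of mouse 2.

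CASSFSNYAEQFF lay close to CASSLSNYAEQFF, a large clone of mouse 1 with the same V and J gene and 1035 templates in tumor 1, 422 in tumor 2 and 106 in the TdLN. In mouse 2 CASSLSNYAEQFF had 4 templates in tumor 1, 88 in tumor 2 and 3 in the TdLN. It also had 5 in the TdLN of mouse 4 and 1 in tumor 1 of mouse 5. From the clone of mouse 1 to the member the reads differed by A66C and C69A, 2 of 87 bases. At the level of amino acids, 372 member CDR3s occurred in 1 mouse, 39 in 2, 18 in 3 and 1 in 4. The last was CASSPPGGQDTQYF (Trbv5, Trbj2-5), encoded by 2 nucleotide sequences.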

How the data were processed

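Membership, gene lists and tests were chosen with earlier results of these data known. The immunoSEQ provider amplified rearranged TCR β from genomic DNA and estimated templates. The deposited counts are whole templates per 87-base rearrangement, used without normalization, and the authors deposited V and J names, CDR3, reading frame, segment positions and insertions in other columns. Labels name mm10, software was not given in the sources used here, and all 35 V and 14 J names were matched to GENCODE M21 symbols on GRCm38. Samples of one number were taken as one mouse, which rests on the paper, and members were pooled per mouse over both tumors. Means over 5 mice were compared with two-sided exact permutation tests (252 splits, smallest p 0.00794), with Benjamini-Hochberg adjustment over 5 junction measures or the V or J genes averaging 1% or more of clones. A sequence that was a member in several mice entered the value of each. With all members the 5 mice were therefore not fully independent replicates. Members and clones in the TdLN come from the same mice, so exact sign-flip tests with the mouse as a replicate block were an alternative (smallest p 0.0625). Alternatives changed the minimum count, size band, tumor, mice, weighting, gene filter and test, and 2 settings were added after seeing the data. The members named are those with most templates per mouse in tumor 1, in tumor 2 and in the smaller of both, and those shared by most mice. The V genes named are the 3, and the J genes the 2, with the largest difference, there being no call. Scripts were tested on simulated V gene shares of 19 genes, with 100 data sets per setting. After adjustment the exact permutation test called 0% of genes changed 2-fold and 8.67% of genes changed 4-fold. Most V gene differences of that size would thus be missed. Python 3.11.15, numpy 2.4.6, pandas 2.3.3, scipy 1.17.1, matplotlib 3.10.9, R 4.3.3 and limma 3.58.1 were used.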

Additional observations from a re-analysis of the deposited data

Results flagged for a closer look

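Of 26 sets of 5 tumor values checked for a sample far from the others, 4 had one, where chance gives about 1 in 20. In tumor 1, private members held 31.6% of productive templates in mouse 5 against 1.21% to 8.35% in the other mice. In tumor 2 they held 61.6% in mouse 5 against 1.61% to 5.04%. The share of tumor 2 members found in another mouse was 9.88% in mouse 5 against 64.5% to 81.5%. The share of out-of-frame rearrangements of tumor 1 absent from the TdLN and found in another mouse was 0% in mouse 3, from 4 rearrangements, against 16.7% to 22.2%. So 3 of these 4 values belong to mouse 5, where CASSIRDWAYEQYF had 679 of 1138 private templates in tumor 1 and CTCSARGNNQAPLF 529 of 1273 in tumor 2.

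Out-of-frame rearrangements lie outside the main measurement. Those absent from the own TdLN and present in another mouse numbered 4, 6 and 5 in tumor 1 of mice 2, 4 and 5 and 30, 21 and 20 in tumor 2 of mice 1, 2 and 3. Their origin was not tested. In 6 comparisons of the effects in tumor 1 and in tumor 2, none differed by the exact permutation test (lowest p 0.0873, adjusted 0.524).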

How the results depend on the processing

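Of 203 alternative values, 160 kept direction and side of the threshold, 3 passed it, 8 moved and 32 turned sign, none of the latter past the threshold. The 160 include 23 V gene and 21 J gene counts that stayed at 0, most from exact tests in which a single gene could not pass. Leaving out small near-copies removed no member, so it repeated the main values. Tests within mice 1 to 3 or mice 4 and 5, and the exact sign-flip tests of the replicate block, could not pass either. The 160 therefore overstates how far the results were tried. The number of members was 883, 283 and 165 at minimums of 2, 5 and 10 templates, 234 in tumor 1 alone, 305 in tumor 2 alone and 297 without sequences found in another mouse. Convergent counterparts came to 4.32% at a minimum of 2 templates (p = 0.00833, the smallest that exact permutation gives) and 5.01% in tumor 1 alone (exact permutation, p = 0.0417). The difference in presence in both tumors was -51.1 points weighted by templates (exact permutation, p = 0.0317). limma with a pseudocount of 1 called 1 J gene, and 1 with the replicate block. The exact sign-flip test of the replicate block cannot go below p = 0.0625 with 5 mice. It could therefore neither make nor keep a call. For presence in both tumors the exact sign-flip test gave p = 0.0625. For sharing between mice in tumor 2 against tumor 1 the exact sign-flip test gave p = 0.125, which does not decide whether that call holds.

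The N base difference turned to 0.252 at a minimum of 2, 0.110 for 3 to 9 templates, 0.170 in tumor 1, 0.206 in tumor 2, 0.202 for private clones (also with the replicate block), 0.0662 with absence judged by CDR3, V and J, 0.00303 in mice 1 to 3 and 0.252 by templates. The share without N bases turned to -0.610 at a minimum of 2, -0.0517 for 3 to 9 templates, -0.261 for private clones (also with the block) and -0.307 in mice 4 and 5. V deletions turned to -0.104 for private clones (also with the block), -0.0518 in mice 4 and 5 and -0.615 by templates, J deletions to -0.0289 in mice 1 to 3, and CDR3 length to 0.0165 by templates. The difference in the share found in another mouse, 8.25 points (exact permutation, p = 0.587), turned to -15.1 in tumor 1, -16.3 in tumor 2, -6.26 in mice 4 and 5 and -1.79 by templates. Private clones of 3 to 9 templates, chosen after seeing the data like the private block, gave 0.116, -2.67 and -0.0406 for N bases, share without N bases and V deletions. Leaving out 1 mouse gave -0.0752 to 0.113, -0.0312 to 2.76, -0.0266 to 0.228 and -1.29 to 15.4 for N bases, share without N bases, J deletions and the share found in another mouse. The causes were not tested. V and J genes were not tested within mice 1 to 3 or 4 and 5, where the exact permutation test cannot pass, and limma was not run there.

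Tumor 2 of mouse 4, with 238 productive templates, had 10 members. The part of TdLN depth in absence was not tested. The TdLNs of mice 4 and 5 had most productive templates (8728 and 9105, against 3254 to 3940) and also the highest shares of absent clones (79.4% and 72.8%, against 54.5% to 64.8%).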
